A study of Mus musculus with 9 samples.

Results

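The genes described here encode the proteins of the mitochondrial ribosome. They were chosen by name alone, as every row of the deposited table whose gene name begins with Mrpl (49 genes) or Mrps (29 genes) followed by a number, which gave 78 of 12550 genes. All 78 passed the filter on low values and were above 0 in every library. The samples were mouse embryonic fibroblasts (MEFs, strain C57Bl/6cJ), sampled during reprogramming towards induced pluripotent stem cells, in LIF-containing embryonic stem cell medium, by plasmids that express the factors Oct4, Sox2, Klf4 and c-Myc. Every culture also received a short hairpin RNA from a pretroSuper construct. In the luciferase arm the hairpin had no mouse target and served as control, in the Hnrnpk arm it was directed at the RNA-binding protein gene Hnrnpk, and in the lincRNA-p21 arm at the non-coding RNA gene Trp53cor1. Total RNA was sequenced on days 6, 9 and 12, which gave 9 libraries, 1 for each arm and day.

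Mitochondria carry their own ribosome, which translates the few proteins encoded by mitochondrial DNA, all of them subunits of the respiratory chain and ATP synthase. Its RNA is made inside the organelle, but every one of its proteins is encoded in the nucleus, made in the cytosol and imported. Part of the set descends from bacterial ribosomal proteins, and the rest was added during the evolution of the organelle. Fibroblasts rely on respiration more than pluripotent cells do, and reprogramming is known for a shift from respiration towards glycolysis.

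By those roles the 78 genes comprised 30 large-subunit proteins with a bacterial counterpart, 19 large-subunit proteins without one, 16 small-subunit proteins with a counterpart and 10 without. Mrps30 and Mrps18a are named for the small subunit but belong to the large one and were counted there. The remaining 3 are no ribosomal protein genes: Mrps36, whose product is a subunit of the alpha-ketoglutarate dehydrogenase complex, and the processed pseudogenes Mrpl48-ps and Mrpl23-ps1. Of the 77 genes listed by role, 75 were in the table under their name, and Mrpl57 and Mrpl58 were not listed under these names. The genes lay on 17 chromosomes, and 77 of the 78 identifiers were found in the GENCODE M21 annotation of GRCm38 (mm10).

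Each library was labelled as merged replicates, so the replicates behind it cannot be separated. A comparison of arms set 3 libraries against 3, 1 for each day, and a comparison of days set 3 libraries against 3, 1 for each arm. The p-values therefore measure only how a difference varied between the days or between the arms, not how it would vary between cultures. The authors' scaling left column totals within 0.0252% of each other, and read depth per library is unknown. Hnrnpk itself had a signal of 31243, 26944 and 23376 on days 6, 9 and 12 with the luciferase hairpin and of 11349, 17016 and 12793 with its own, a fall (-0.997 on the log2(signal + 10) scale, SE 0.16, limma adjusted p = 0.00824). Trp53cor1 had a signal of 286.5, 237 and 250 with the luciferase hairpin, while its own hairpin left 90.5, 122 and 97 (-1.25, SE 0.15), which missed the threshold of 0.05 (limma adjusted p = 0.0603). In the Hnrnpk arm Trp53cor1 was at 131, 137 and 119.5 and also fell (-0.94, limma adjusted p = 0.00752). All 10 fibroblast and all 10 pluripotent cell markers were in the table, as were 4 of 5 keratinocyte, 3 of 5 muscle, 1 of 5 endothelial, 1 of 6 macrophage and 0 of 4 adipocyte markers. In bulk samples such as these, fewer cells of a type and less RNA per cell cannot be told apart.

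The summed signal of the 78 genes went from 91069 on day 6 to 86005 and then 70466 in the luciferase arm on days 9 and 12. In the Hnrnpk arm it ran the other way, at 81076, 88046 and 94624. In the lincRNA-p21 arm it was 98439, 86572 and 84737. The genes made up between 0.285% (luciferase day 12) and 0.398% (lincRNA-p21 day 6) of the column total. On day 12 the sum in the Hnrnpk arm was the highest of the 3 arms, and on day 6 it was the lowest.

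Per kilobase of exon, the median of the genes was 489 signal units against 178 over all genes tested. Their exons were shorter, with a median of 2114 bases against 4604.5, and their GC content was alike, at 49.9% against 49.6%. Mrpl12, which forms the flexible stalk that contacts elongation factors, had the highest level per kilobase, at 2170. It was followed by Mrps21 at 1716, a small-subunit protein with a bacterial counterpart, and by the pseudogene Mrpl23-ps1 at 1511. The lowest levels per kilobase were those of Mrpl23 (39.9), a large-subunit protein at the exit of the peptide tunnel, Mrpl47 (102) and Mrpl48 (102). Mrpl23 and Mrpl48 each have a processed copy among the 78 genes, and reads from a gene and its copy may have been divided between them, so the levels of these 4 entries are uncertain.

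**Figure D1:**
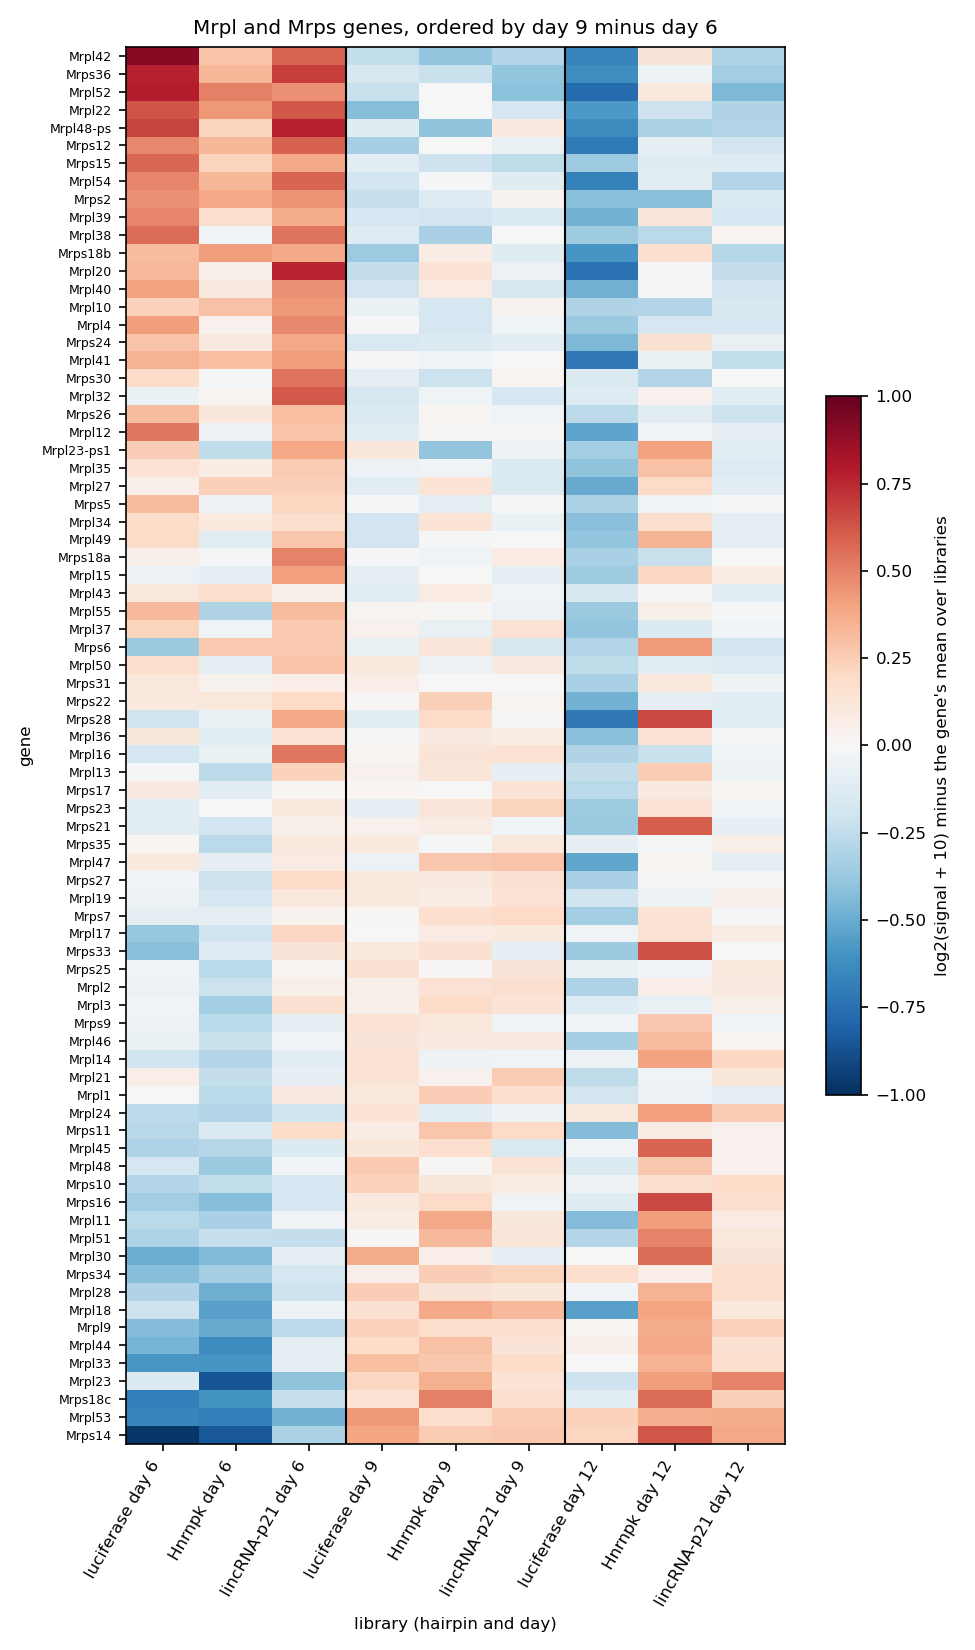
Signal of each of the 78 genes in each of the 9 libraries, as log2(signal + 10) minus the gene's own mean (colour scale from -1 to 1), with genes ordered by their day 9 minus day 6 difference and black lines between the days. The genes at the top, from Mrpl42 to Mrps12, are high on day 6 in all arms, those at the bottom, from Mrpl44 to Mrps14, are low on day 6, and 47 of the 78 genes have their lowest value in the luciferase day 12 column.

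The genes varied moderately, with a median of 1.75 for the ratio of the highest to the lowest library. The narrowest ranges were those of Mrpl43 (1.26), Mrpl19 (1.27) and Mrps35 (1.30). The widest were those of Mrps14 (3.07), Mrpl42 (3.02) and Mrpl52 (2.96). In 47 of the 78 genes the lowest library was luciferase day 12, and in 25 the highest was Hnrnpk day 12. A day 6 library was the highest for 36 genes and the lowest for 27. Over the 9 libraries, which share their arms and days, the correlation of a gene with the mean of the other members had a median of 0.58, against 0.03 for the correlation of all genes with the members' mean. It was above 0 for 75 genes. The 3 exceptions were Mrps34 (-0.16), Mrpl53 (-0.13) and Mrpl24 (-0.02), and the highest value was that of Mrpl36 (0.96).

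A principal component analysis of the 78 genes put 58.6% of the variance on a first axis that separated the days. The day 6 libraries lay between 2.11 and 3.04 on it, and the other 6 lay between -2.22 and -0.74. The second axis held 25.8% of the variance. Its ends were luciferase day 12 at 2.49 and Hnrnpk day 12 at -1.92.

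The promoters of the genes that led the changes between days are shown because members rose and fell side by side. RefSeq promoter windows (GRCm38.p6, 250 bases before to 50 after a transcription start) were matched by symbol to 67 of the 78 genes, in 73 windows. The 150 bases before the start are printed 5′ to 3′ on the gene's strand. Capitals mark matches on either strand to GCGCATGC (NRF1), CCGGAAG (ETS family, to which GABP belongs), AAGATGGC (YY1), CACGTG (E-box, bound by Myc) or GGGCGG (Sp1). The first pair below, Mrps14 (chr1:160195065-160195214, plus strand) and Mrpl9 (chr3:94443186-94443335, plus strand), rose after day 6. The other three, Mrpl22 (chr11:58171514-58171663, plus strand), Mrpl52 (chr14:54426759-54426908, plus strand) and Mrpl42 (chr10:95501950-95502099, minus strand), fell.
Mrps14: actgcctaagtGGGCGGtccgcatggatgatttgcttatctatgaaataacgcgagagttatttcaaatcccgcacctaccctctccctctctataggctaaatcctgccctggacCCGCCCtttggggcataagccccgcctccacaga
Mrpl9: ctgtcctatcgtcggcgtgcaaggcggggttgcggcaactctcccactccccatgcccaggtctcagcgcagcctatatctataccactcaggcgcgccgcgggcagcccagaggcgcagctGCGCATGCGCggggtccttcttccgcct
Mrpl22: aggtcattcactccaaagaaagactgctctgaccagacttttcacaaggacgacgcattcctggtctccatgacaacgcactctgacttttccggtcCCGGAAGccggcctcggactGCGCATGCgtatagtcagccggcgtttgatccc
Mrpl52: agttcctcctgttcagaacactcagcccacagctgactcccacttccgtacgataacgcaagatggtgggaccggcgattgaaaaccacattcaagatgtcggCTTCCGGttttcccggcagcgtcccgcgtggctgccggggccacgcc
Mrpl42: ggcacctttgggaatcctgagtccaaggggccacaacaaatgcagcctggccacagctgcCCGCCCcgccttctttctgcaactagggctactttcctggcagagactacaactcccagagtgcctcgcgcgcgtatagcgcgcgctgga

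Mrps14 held 2 Sp1 matches in this stretch, and Mrpl9 a pair of overlapping NRF1 matches that begin 28 and 26 bases before the start. Mrpl22 had an ETS match 53 bases and an NRF1 match 33 bases before the start, Mrpl52 an ETS match 47 bases before it and Mrpl42 an Sp1 match 90 bases before it. In the whole windows the ETS letters were present in 32.9% of the genes' windows, against 16.6% of the windows of all genes tested and 8.86% of all 32851 windows. The YY1 letters were present in 16.4%, against 4.24% and 2.75%. The NRF1 letters were present in 11%, against 5.13% and 2.71%. The E-box letters (9.59%, against 9.9% and 7.15%) and the Sp1 letters (52.1%, against 63.1% and 35.7%) were no more frequent than among the genes tested. Genes that rose and genes that fell between days 6 and 9 both held ETS letters, at 4 of 10 and 4 of 11 genes with a window, and 16 of the 46 that did not pass the test held them too. The NRF1 letters were in the windows of 2 of the 10 that rose (Mrpl33, Mrpl9) and 4 of the 11 that fell (Mrpl10, Mrpl22, Mrpl39, Mrps18b). The YY1 letters were in 0 of 10 and in 2 of 11 (Mrpl42, Mrps12). These matches are letters in a window, and binding was not measured.

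Many of the genes start near the start of a gene on the other strand. A protein-coding gene started on the opposite strand within 1000 bases of 32 of 75 annotated members (42.7%), against 1927 of 12164 genes tested (15.8%). Mrpl46 and Mrps11 form such a pair with each other, and their signals had a correlation of 0.73 over the 9 libraries. Others lay beside Fau, Sars2, Ppp1r10, Ndufs6, Tcp1 or Psma2. Over the libraries, 20 of the 28 members with such a neighbour in the table had a correlation above 0 with it. Mrpl46 and Mrps11 both count among the 20. The correlations ran from -0.68 (Mrpl41 and Pnpla7, whose starts lay 935 bases apart) to 0.85 (Mrps18b and Ppp1r10, 45 bases apart). The genes of 22 members overlapped one on the other strand (29.3%, against 20.3% of the genes tested). No source used here says whether reads were counted by strand, so in these overlaps the reads of both genes cannot be told apart.

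Between day 6 and day 9 the mitochondrial ribosomal protein genes split, with 11 rising and 15 falling. The largest rises were those of Mrps14, Mrpl53 and Mrps18c and the largest falls those of Mrpl42, Mrps36, Mrpl52 and Mrpl22. Among all genes tested, 18.9% rose and 21% fell by the same rule, so the members' 11 and 15 of 78 are near the background. The median difference of the members was 0.00 on the log2(signal + 10) scale, the scale of all differences below. It was -0.01 in the luciferase arm, 0.19 in the Hnrnpk arm and -0.11 in the lincRNA-p21 arm. The day 6 and day 9 libraries did not overlap in 21 members that were higher on day 9 and 18 that were lower, where all genes tested gave 21.9% and 23.0%. Over the same days 9 of 10 pluripotent cell and 3 of 4 keratinocyte markers rose, 5 of 10 fibroblast markers fell, and of 3 muscle markers 1 rose and 2 fell. The part of that shift in the members' differences was not tested.

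Mrps14, a protein of the small subunit's head (gene at chr1:160195215-160202170), had a signal of 404, 440.5 and 642 on day 6 in the luciferase, Hnrnpk and lincRNA-p21 arms. On day 9 it was at 1053, 954.5 and 965. Every day 9 library lay above every day 6 library, and the difference was 1.01 (SE 0.17, limma adjusted p = 0.00222). Mrpl53, a large-subunit protein without a bacterial counterpart, had 484.5, 476 and 554.5 on day 6 and 1046.5, 874 and 925.5 on day 9, again without overlap (0.90, SE 0.11, limma adjusted p = 0.000622). Mrps18c, at 260, 276 and 359 and then 467.5, 604.5 and 477, rose by 0.78 (limma adjusted p = 0.00533). Mrpl33, a small large-subunit protein with a bacterial counterpart, went from 423, 421 and 598 to 790, 774 and 726 (0.67, limma adjusted p = 0.00791). The calls for Mrps14, Mrpl53 and Mrps18c held whichever of the 9 libraries was left out, and that for Mrpl33 was lost without luciferase day 9. Mrpl23 rose by 0.70 (limma adjusted p = 0.0448), from 169, 98.5 and 139 to 217.5, 242 and 207, but this call held in only 3 of the 9 analyses that left out a library. It was lost without luciferase day 9, Hnrnpk day 6 or 9, or any lincRNA-p21 library, where the difference ranged, over all 9, from 0.43 to 0.98.

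Mrpl42, a large-subunit protein without a bacterial counterpart, fell from 2181.5, 1407 and 1739 on day 6 to 973, 879.5 and 943 on day 9 in the luciferase, Hnrnpk and lincRNA-p21 arms (-0.90, SE 0.22, limma adjusted p = 0.0127). The libraries did not overlap, but the call was lost without Hnrnpk day 9 or lincRNA-p21 day 6, and the difference lay between -1.14 and -0.66 over the 9 libraries left out in turn. Mrpl52, another addition to the large subunit, went from 2501, 2062 and 1991.5 to 1238, 1449.5 and 1089.5 (-0.79, limma adjusted p = 0.0104). Mrpl22, which lines the tunnel through which the nascent peptide leaves, went from 943, 822.5 and 940.5 to 448.5, 604 and 540 (-0.76, SE 0.13, limma adjusted p = 0.00264). In both, each day 9 library lay below each day 6 library, and the calls held without any library. Mrps36, the dehydrogenase subunit, fell by 0.86 on the log2 scale, from 1273, 937 and 1208.5 to 662, 634 and 567 (limma adjusted p = 0.00591). The pseudogene Mrpl48-ps, at 153, 109 and 164 and then 84, 67 and 98.5, had a difference of -0.70 (limma adjusted p = 0.0154), whereas Mrpl48 itself was higher on day 9 without passing the test (0.33, limma adjusted p = 0.1003). The call for Mrpl48-ps was lost without luciferase day 9, Hnrnpk day 9 or lincRNA-p21 day 6 or 9, with differences from -0.83 to -0.59 over all libraries left out.

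**Figure D2:**
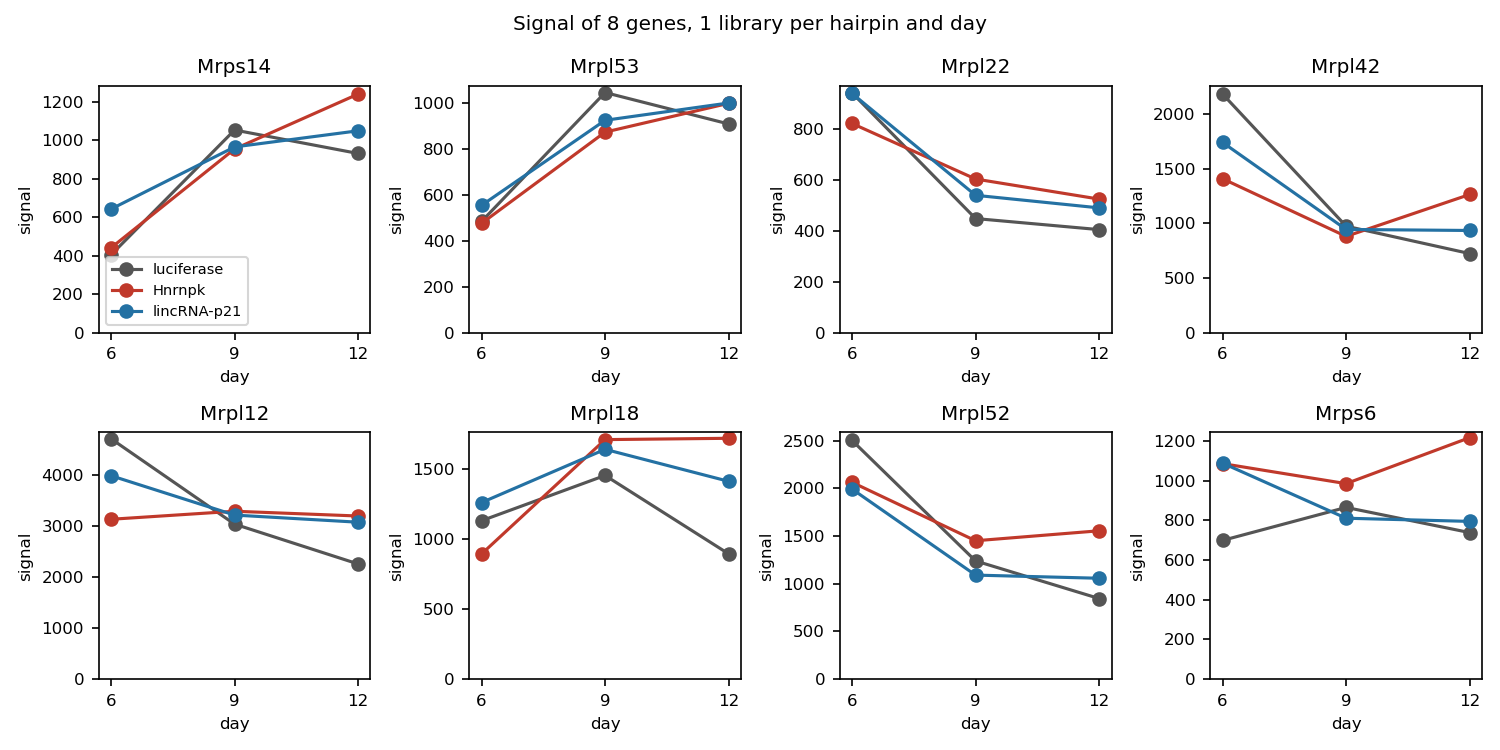
Signal (linear axis from 0) of 8 genes on days 6, 9 and 12, with 1 point per library and 1 line per arm. Mrps14 and Mrpl53 stand at 642 or below on day 6 and at 874 or above afterwards in all arms, Mrpl22, Mrpl42 and Mrpl52 are highest on day 6, and Mrpl12, Mrpl18 and Mrps6 show the Hnrnpk arm above the luciferase arm on day 12.

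Of the remaining genes that rose, Mrpl44, which has a ribonuclease-like fold, changed by 0.60 (limma adjusted p = 0.0142). Mrpl9 changed by 0.59, Mrpl28 by 0.49, Mrps34 by 0.48, Mrpl51 by 0.41 and Mrps10 by 0.38. The other falls were those of Mrps12, Mrps15, Mrpl54, Mrps2, Mrpl39, Mrpl38, Mrps18b, Mrpl10, Mrpl4 and Mrps30, from -0.61 to -0.33. Mrps12, the counterpart of the bacterial protein whose mutations give resistance to streptomycin, had 943, 848.5 and 1021 on day 6 and 532.5, 670.5 and 639 on day 9. Its call (-0.61, limma adjusted p = 0.0102) was lost without luciferase day 9 or lincRNA-p21 day 9, with differences from -0.77 to -0.46. Over all 26 genes, 5 of the 11 rises and 5 of the 15 falls passed the test with each of the 9 libraries left out in turn. Without luciferase day 9 the counts were 5 higher and 8 lower (11.4% and 13% of all genes tested). Without Hnrnpk day 9 they were 6 and 7 (11.7% and 13.7%), and without Hnrnpk day 6 they were 7 and 20 (18.1% and 19.1%). The number of falls was 7 without lincRNA-p21 day 6 and 6 without lincRNA-p21 day 9 (15% and 13% of all genes tested).

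Rises and falls both occurred within each subunit and among close relatives. Of the 30 large-subunit proteins with a bacterial counterpart 4 rose and 3 fell (median 0.14), and of the 19 without a counterpart 3 rose and 6 fell (median -0.17). Of the 16 small-subunit proteins with a counterpart 3 rose and 3 fell (median 0.08), and of the 10 without 1 rose and 1 fell (median 0.10). These differences between roles were not tested. Among the paralogs of the Mrps18 family, Mrps18c rose and Mrps18b fell, from 1881.5, 2032 and 1985 to 1182, 1601 and 1400 (-0.50, limma adjusted p = 0.0140). The call for Mrps18b was lost without luciferase day 9, Hnrnpk day 9 or lincRNA-p21 day 6 or 9 (-0.63 to -0.39 over all libraries left out). Mrps18a differed by -0.17 (limma adjusted p = 0.229). Around the stalk, Mrpl10, which anchors it, fell by 0.39 on the log2 scale (limma adjusted p = 0.00899). That call was lost without Hnrnpk day 9 or lincRNA-p21 day 9, with differences from -0.43 to -0.36. Mrpl11, at the stalk's base, had a difference of 0.40 (limma adjusted p = 0.0854) and Mrpl12 one of -0.29 (limma adjusted p = 0.229). Mrpl3, near the peptidyl transferase centre, differed by 0.20 (limma adjusted p = 0.217), Mrps5 by -0.20 (limma adjusted p = 0.239) and Mrps27, a pentatricopeptide repeat protein, by 0.13 (limma adjusted p = 0.410).

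**Figure D3:**
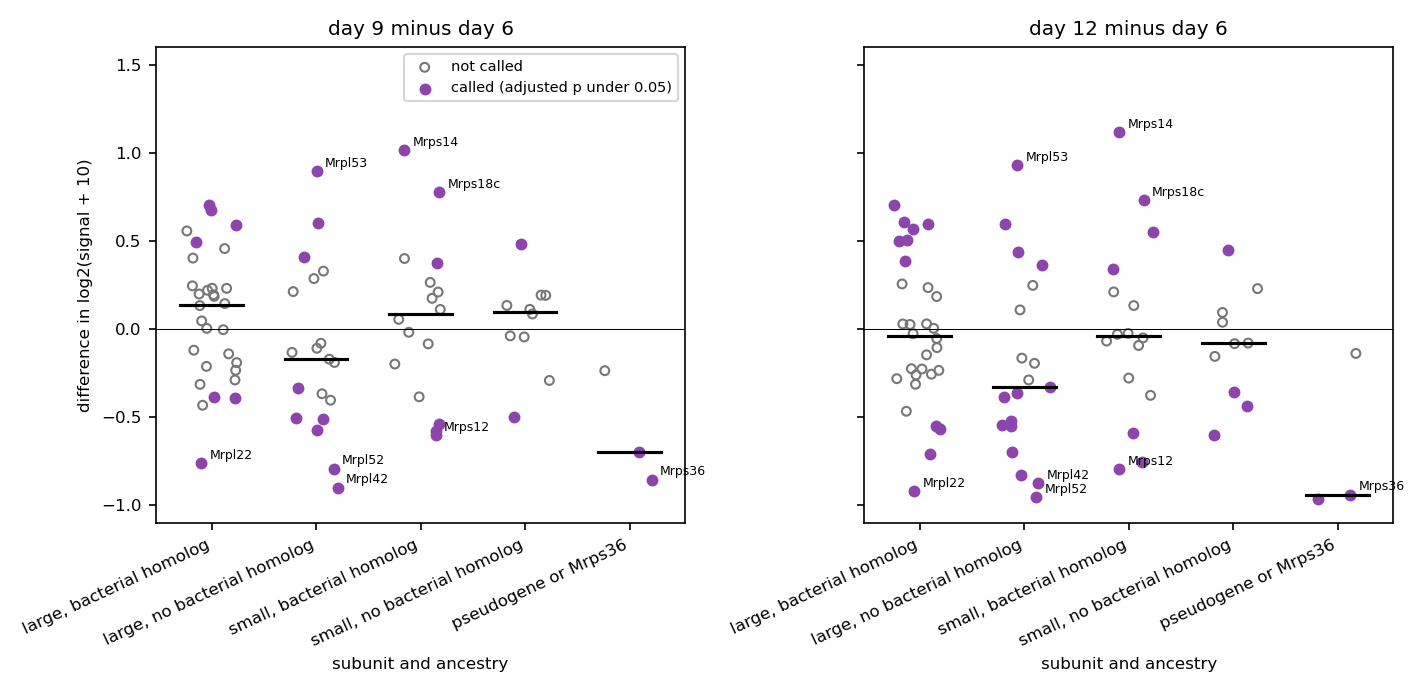
Difference in log2(signal + 10) between day 9 and day 6 (left) and between day 12 and day 6 (right) for each of the 78 genes, grouped by subunit and ancestry, with filled points for genes at a limma adjusted p under 0.05 and black bars at the group medians. Rises and falls occur in each of the first 4 groups in both panels, and the median of the large-subunit proteins without a bacterial counterpart is -0.17 on the left and -0.33 on the right.

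Between day 6 and day 12 there were 16 rises and 22 falls (22.3% and 27.0% of all genes tested), with a median of -0.10. The 2 day comparisons share the day 6 libraries, so their values are given side by side and are not independent. The median was -0.31 in the luciferase arm, 0.21 in the Hnrnpk arm and -0.19 in the lincRNA-p21 arm. The libraries did not overlap in 15 members that were higher and 20 that were lower on day 12 (21.4% and 26.1% of all genes tested). Without Hnrnpk day 12 there were 7 rises and 29 falls (19.5% and 23% of all genes tested). The counts were 9 and 29 without Hnrnpk day 6 (21.9% and 26.4%), and 9 and 14 without lincRNA-p21 day 12 (15.7% and 18.7%).

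Mrps14 stood at 931, 1240 and 1049 on day 12 in the luciferase, Hnrnpk and lincRNA-p21 arms (1.12 above day 6, limma adjusted p = 0.000865). Mrpl53 stood at 909.5, 999.5 and 1001 (0.93, limma adjusted p = 0.000275) and Mrps18c at 391, 629 and 499.5 (0.73, limma adjusted p = 0.00492). Mrpl9, at 1380, 1763 and 1602.5, rose by 0.60 from 1007, 958.5 and 1137 on day 6 (limma adjusted p = 0.00295). The day 12 calls of these 4 genes held without any library. In each of them the day 12 libraries lay above all of those of day 6.

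The deepest falls by day 12 were those of Mrpl48-ps (-0.97), Mrpl52 (-0.96), Mrps36 (-0.94), Mrpl22 (-0.92) and Mrpl42 (-0.88). Mrpl52 stood at 844, 1554 and 1056.5 (limma adjusted p = 0.00314), so that its fall from day 6 was 1.56 on the log2 scale in the luciferase arm and 0.41 in the Hnrnpk arm. Mrpl22 stood at 405, 525 and 490.5 (limma adjusted p = 0.000661). The calls of these 5 genes held whichever library was left out. That of Mrpl23, a rise of 0.70 with overlapping libraries, held in 3 of 9 analyses and was lost without luciferase day 9, Hnrnpk day 6, 9 or 12, or lincRNA-p21 day 6 or 12 (lowest value 0.43). Mrps2, a small-subunit protein with a bacterial counterpart, fell more evenly, by 0.87, 0.81 and 0.59 on the log2 scale in the 3 arms (-0.75, limma adjusted p = 0.000423). Of the 19 large-subunit proteins without a bacterial counterpart 10 fell and 4 rose (median -0.33), and of the 30 with one 4 fell and 7 rose (median -0.04). The small-subunit proteins with a counterpart had 4 rises and 3 falls of 16 (median -0.04), and those without had 1 rise and 3 falls of 10 (median -0.08).

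Between day 9 and day 12, 0 of 78 genes rose and 0 fell by the limma test (0.526% and 0.128% of all genes tested), and 5 had an unadjusted p under 0.05, or 6.41% against 14.1% of all genes tested. The lowest differences were those of Mrpl47 (-0.36), Mrpl41 (-0.33) and Mrps22 (-0.32), which had the smallest adjusted p of 0.269, and the highest those of Mrpl24 (0.26), Mrpl14 (0.17) and Mrpl45 (0.15). The median difference was -0.30 in the luciferase arm, 0.06 in the Hnrnpk arm and -0.04 in the lincRNA-p21 arm, and -0.08 over all. The libraries did not overlap in 0 members that were higher on day 12 and 8 that were lower (6.67% and 8.84% of all genes tested), a share of the lower ones near the background.

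The Hnrnpk and luciferase arms differed by 0.10 at the median over the 3 days, and 61 of 78 genes had a higher mean in the Hnrnpk arm, against 50.2% of all genes tested. By the limma test 0 genes were higher and 0 lower (5.58% and 6.94% of all genes tested), with 9 members at an unadjusted p under 0.05, or 11.5% against 29.4% of all genes tested. Among the members the median started at -0.15 on day 6, was 0.06 by day 9 and reached 0.43 by day 12. That of all genes tested stayed between -0.02 and 0.01. The authors' scaling left the columns with nearly equal totals and the same highest value. A median near 0 over all genes may therefore be set by that scaling, and it is no independent baseline. Without day 6, 14 members were higher in the Hnrnpk arm (11.7% of all genes tested). The number was 6 without Hnrnpk day 6, 3 without luciferase day 6 and 1 without lincRNA-p21 day 6, where 6.67%, 7.82% and 4.55% of all genes tested were higher. In the same comparison 7 of 10 pluripotent cell and 4 of 4 keratinocyte markers were higher in the Hnrnpk arm, of 3 muscle markers 2 were higher and 1 lower, and 0 of 10 fibroblast markers passed the test. The part of these shifts in the members' differences was not tested.

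**Figure D4:**
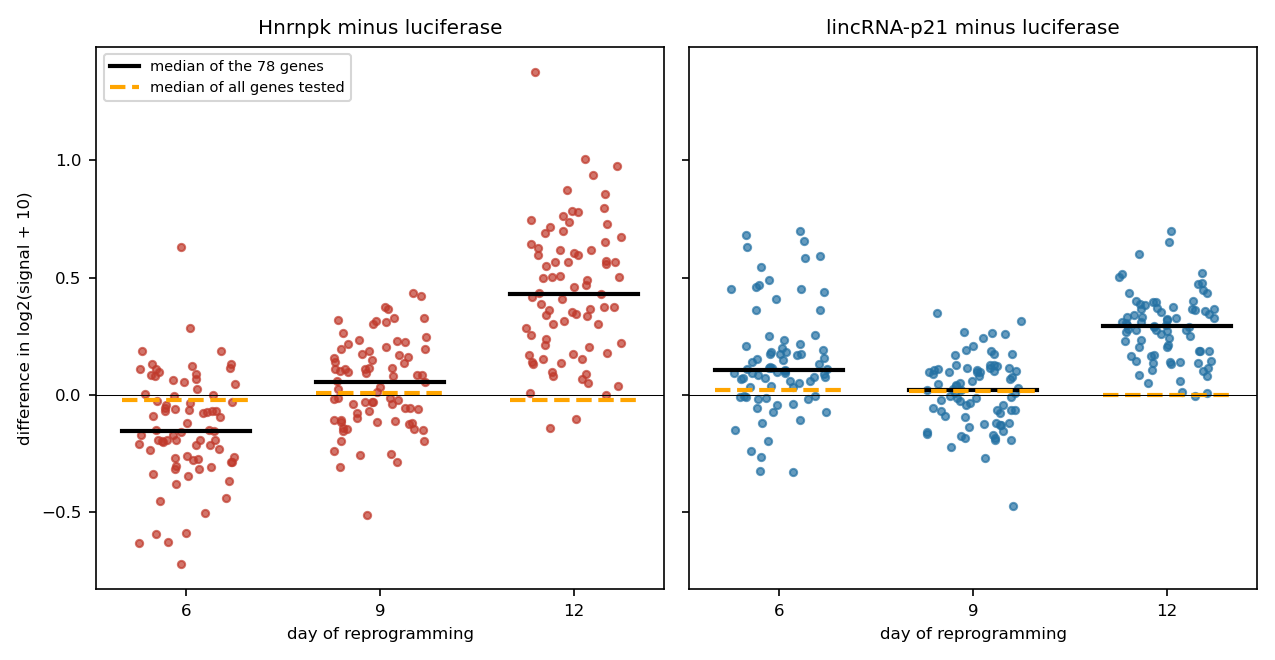
Difference in log2(signal + 10) of each of the 78 genes from the luciferase arm on days 6, 9 and 12, for the Hnrnpk arm (left) and the lincRNA-p21 arm (right), with 1 point per gene, black bars at the median of the members and dashed bars at the median of all genes tested. The Hnrnpk medians are -0.15, 0.06 and 0.43 and the lincRNA-p21 medians 0.11, 0.02 and 0.29, and both panels use the same luciferase libraries.

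The largest differences in the Hnrnpk arm were in small-subunit genes. Mrps28 had 497, 597.5 and 831.5 on days 6, 9 and 12, against 453, 480.5 and 314 in the luciferase arm, without overlap (0.61, SE 0.24, limma adjusted p = 0.130). Mrps6, a counterpart of a bacterial platform protein, had 1087, 986 and 1218 against 699.5, 866 and 739 (0.51, limma adjusted p = 0.0647). Mrps18b, at 2032, 1601 and 1713.5 against 1881.5, 1182 and 1006, had the smallest adjusted p (0.44, SE 0.13, limma adjusted p = 0.0560). Their groups overlapped only for Mrps18b, and of all members 5 were higher and 0 lower without overlap (6.87% and 8.52% of all genes tested). At the other end Mrpl38 had a difference of -0.23, Mrps30 of -0.15 and Mrpl48-ps of -0.14.

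The Hnrnpk minus luciferase difference shifted upwards with the days, from a median below 0 on day 6 to one above 0 on day 12. Its slope, in log2 units per 3 days, had a median of 0.28 over the members and was above 0 in 74 of 78, against 48.1% of all genes tested. It passed the limma test upwards in 12 members and downwards in 0 (5.06% and 4.30% of all genes tested), and 43 had an unadjusted p under 0.05, or 55.1% against 30.4% of all genes tested. The 12 were Mrpl42 (0.71, limma adjusted p = 0.0195), Mrpl23, Mrpl18, Mrps28, Mrpl52, Mrpl12, Mrpl55, Mrps21, Mrpl49, Mrps36, Mrpl39 and Mrpl36 (0.39, limma adjusted p = 0.0482). They include large-subunit proteins with a bacterial counterpart (5 of 30), large-subunit proteins without one (4 of 19) and small-subunit proteins with one (2 of 16), besides Mrps36. This fit leaves 2 residual degrees of freedom. The number of members called was 0 without luciferase day 6, luciferase day 12 or any of the 3 lincRNA-p21 libraries, 1 without Hnrnpk day 6 and 5 without Hnrnpk day 12, but 37 without luciferase day 9 and 28 without Hnrnpk day 9. Of all genes tested, 0% were called without any 1 of the lincRNA-p21 libraries. Upwards, 0.00797% were called without luciferase day 6, 0.223% without Hnrnpk day 6 and 3.3% without luciferase day 12. The share called upwards was 4.83% without Hnrnpk day 12, 11.3% without luciferase day 9 and 10% without Hnrnpk day 9. Each of the 12 was called in 2 or 3 of these 9 analyses. Their slopes stayed above 0 throughout, from 0.15 (Mrps28) to 1.09 (also Mrps28).

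Mrpl12 had 4713, 3038.5 and 2257.5 on days 6, 9 and 12 in the luciferase arm and 3134, 3291.5 and 3198 in the Hnrnpk arm. The luciferase values fell with each day and the Hnrnpk values stayed within a narrow range, and the slope was 0.54 (SE 0.10, limma adjusted p = 0.0253). Mrpl18, a large-subunit protein with a bacterial counterpart, had 1133, 1457 and 896 against 895, 1713.5 and 1723 (0.64, SE 0.10, limma adjusted p = 0.0223), so the order of the arms turned between day 6 and day 9. Mrpl49, without a bacterial counterpart, had 1219, 938.5 and 813.5 against 998, 1057.5 and 1363.5, with the same turn (0.51, SE 0.09, limma adjusted p = 0.0244).

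Other groups moved with this slope. It was called upwards in 12 of 15 cell cycle genes (median 0.65), with Ccnb1, which drives entry into mitosis, at 1.14 (limma adjusted p = 0.0167). The summed signal of those 15 genes was 72705, 51338 and 35667 on days 6, 9 and 12 in the luciferase arm and 43732, 68457 and 59034 in the Hnrnpk arm. The slope was also called upwards in 5 of 10 pluripotent cell markers, whose summed signal was 533.5, 1532 and 1738 in the luciferase arm and 745.5, 6353.5 and 11628 in the Hnrnpk arm. The 10 fibroblast markers had 0 called slopes and sums of 184968, 196514 and 185950 against 228732, 117558 and 150853. The sums of the 4 keratinocyte markers, 1 of which had a called slope, were 911, 3920.5 and 4172 against 1931, 6794.5 and 10882. The part of these groups in the members' slope was not tested. Across the 77 members with a length, the slope had a Pearson correlation of -0.33 with log2 exon length, against -0.18 across all genes tested, and genes are not independent replicates.

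The lincRNA-p21 and luciferase arms, which share their luciferase libraries with the comparison above, differed by 0.15 at the median, and 72 of 78 genes had a higher mean in the lincRNA-p21 arm (53.8% of all genes tested). By the limma test 0 members were higher and 0 lower (0.00797% and 0.0% of all genes tested). There were 4 with an unadjusted p under 0.05, or 5.13% against 13.8% of all genes tested, and the smallest adjusted p was 0.266, for Mrps11. By day the members' median was 0.11, then 0.02 and then 0.29. Mrps28 had 684, 515 and 481 against 453, 480.5 and 314 (0.43, SE 0.24, limma adjusted p = 0.471), without overlap, and of all members 4 were higher and 0 lower without overlap (4.31% and 4.21% of all genes tested). Next came Mrpl20 (0.37) and Mrpl16 (0.36), both large-subunit proteins with a bacterial counterpart, and the lowest values were those of Mrps9 (-0.07), Mrpl52 (-0.06) and Mrps15 (-0.04). The slope over the days had a median of 0.06 in this arm and 0 of 78 members passed in either direction (0.0% of all genes tested each way), with 7 at an unadjusted p under 0.05, or 8.97% against 16.8% of all genes tested, and a smallest adjusted p of 0.190, for Mrpl12 (0.34). The highest slopes were those of Mrpl23 (0.48) and Mrpl42 (0.35), and the lowest that of Mrpl32 (-0.33). Without luciferase day 12, 2 members had a called slope, both downwards (2.03% of all genes tested).

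Set against each other, the knockdown arms differed by 0.03 at the median, with medians of 0.27, -0.03 and -0.16 (lincRNA-p21 minus Hnrnpk) on days 6, 9 and 12. The limma test called 0 members higher and 0 lower (1.70% and 1.56% of all genes tested), with 3 at an unadjusted p under 0.05, or 3.85% against 19% of all genes tested. In the lincRNA-p21 arm 7 members were higher and 0 lower without overlap (6.57% and 4.78% of all genes tested). Mrps30 had 2037, 1417 and 1389 against 1384.5, 1198 and 1137.5 (0.36, SE 0.10, limma adjusted p = 0.0921), with each lincRNA-p21 library above that of the same day and all 3 above all 3. Mrpl38, a large-subunit protein without a bacterial counterpart, had 2268, 1555 and 1587 against 1520, 1242.5 and 1291 (0.40, limma adjusted p = 0.141). Mrpl52 (-0.34) and Mrps6 (-0.29) were at the other end. The slope of the Hnrnpk arm minus that of the lincRNA-p21 arm was called in 0 members in either direction (0.0% of all genes tested each way), with 25 at an unadjusted p under 0.05, or 32.1% against 14.5% of all genes tested, and a smallest adjusted p of 0.246, for Mrpl49. Its median over the members was 0.20, and it was above 0 in 76 of 78, against 49.98% of all genes tested. Without Hnrnpk day 9 it was called upwards in 4 (1.26% of all genes tested). With all libraries, the slopes of both arms were not shown to differ for any single gene of the 78.

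The proteins that assemble, feed and regulate this ribosome were taken as lists. Of 7 mitochondrial ribosomal proteins that go by other names, 3 rose and 1 fell between days 6 and 9, with Aurkaip1 at 0.58 and Gadd45gip1 at -0.51. Of 25 assembly factors, 5 rose and 2 fell. The largest differences were those of Noa1 (-0.87, limma adjusted p = 0.00076), a GTPase needed for the small subunit, and Mpv17l2 (-0.72, limma adjusted p = 0.00108), which associates with the large one. Of 16 translation factors 2 rose and 2 fell, with Slirp, which stabilises mitochondrial messages, at 0.86 (limma adjusted p = 0.00121) and Mtfmt, which formylates the initiator tRNA, at -0.49 (limma adjusted p = 0.00454).

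Of 17 mitochondrial aminoacyl-tRNA synthetases 5 rose and 0 fell, led by Lars2 (2.00, limma adjusted p = 0.000805), which charges the leucine tRNAs, and Nars2 (0.63). Of 8 genes of mitochondrial transcription 2 rose and 1 fell, with Tefm, the elongation factor, at 0.66 and Tfb2m at -0.44. Of 11 regulators of nuclear genes for mitochondria 2 rose and 3 fell, with Mycn at 1.80 (limma adjusted p = 0.0342) and Ppargc1b, a coactivator of respiratory genes, at -1.105 (limma adjusted p = 0.0017). The rise of Mycn lay mostly in the knockdown arms, from 36.5 to 437.5 (Hnrnpk) and from 50 to 195 (lincRNA-p21). In the luciferase arm Mycn was low on both days, at 24 and 33.5. For comparison, 15 of 24 cytosolic ribosomal protein genes rose and 1 fell (median 0.51). Of 78 nuclear genes matched by name to respiratory chain and ATP synthase subunits, 24 rose and 4 fell (median 0.16). Beside these stand the 11 rises and 15 falls of the 78 mitochondrial ribosomal protein genes, with a median of 0.00. The lists were not tested against each other. By day 12 the respective counts were 10 and 1 (median 0.50), 24 and 6 (median 0.20), and 16 and 22 (median -0.10). The 24 cytosolic and the 78 respiratory genes were the rows matched by name, and no full list of either group was used. Whether each matched row encodes a subunit was not checked. Among the cytosolic genes Rps2 and Rpl7 reached 118715, the highest value of every column, in several libraries. Rpl3 lay between 49 and 113.5.

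Between the Hnrnpk and luciferase arms few genes of those lists passed. Lower in the Hnrnpk arm were Sars2, the mitochondrial seryl-tRNA synthetase (-0.75, limma adjusted p = 0.0211), Guf1, a translation factor (-0.49, limma adjusted p = 0.0123), and Mrm1, which methylates the ribosomal RNA of the large subunit (-0.47, limma adjusted p = 0.0287). Sars2 starts 172 bases from Mrps12 on the other strand, and Mrps12 differed by 0.26 (limma adjusted p = 0.253) in that comparison. Of the 78 genes matched by name to respiratory subunits 0 rose and 1 fell, Ndufa4l2 (-1.68, limma adjusted p = 0.0391). Whether Ndufa4l2 encodes such a subunit was not checked. Of the regulators Mycn was higher (2.60) and Myc lower (-0.87). The reprogramming plasmids expressed c-Myc too, so the Myc signal may mix reads from plasmid and genome. For the slope over the days, 12 of the 78 genes matched to respiratory subunits rose and 0 fell (median 0.29). Beside these stand 12 and 0 of the 78 mitochondrial ribosomal protein genes (median 0.28). Of the 24 cytosolic ribosomal protein genes 3 rose (median 0.24). These were Rps6, Rps3a2 and Rpl3, and Rpl3 had a signal of at most 113.5 in any library.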

How the data were processed

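The deposited table gives 1 normalized signal value for each gene and library. Per the submitters' processing notes, RSEM 1.2.12, Bowtie 1.0.1 and the build mm10 were used. No source used here says how the authors scaled the signal or how many replicates were merged. Values move in steps of 0.5 and all 9 columns share the highest value of 118715. The depth of each library is unknown, and count tests were not used.

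Values were used as deposited, as log2(signal + 10), which understates the change of low genes. Genes with a mean of at least 20 were tested (12541, with 9 below). Tests used limma 3.58.1 in R 4.3.3, with terms for arm and day and an intensity trend (4 residual and 4.46 prior degrees of freedom). Benjamini-Hochberg adjustment ran over all genes tested, at 0.05. Slopes over the days (2 residual and 5.73 prior degrees of freedom) are in log2 units per 3 days. Only the fit of the Hnrnpk minus luciferase comparison was tested on simulated data. The simulated shift was the same on all days and larger than the difference of any member in that comparison. The simulation did not cover smaller differences, the day comparisons or the slopes. Levels per kilobase, lengths and positions came from GENCODE M21, which held 12470 of the identifiers, and promoters from RefSeq.

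The members, gene lists and tests were chosen with earlier results of these data known. Named for each comparison were the 5 called members with the largest rise and the 5 with the largest fall among those that changed the same way in all 3 pairs, or, with fewer than 3 called, the 3 with the largest difference. The 3 highest and 3 lowest levels per kilobase, the 3 least like the others and genes chosen by role were also named, and from each other list the leading called genes. Mrpl49, Mrpl9 on day 9 and other members named beyond this were chosen after their values were seen. The comparison of the 2 slopes was added after the data were seen.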

Additional observations from a re-analysis of the deposited data

Results flagged for a closer look

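The difference between the Hnrnpk and luciferase arms changed with the day in 12 of the 78 genes, by the limma test of the slope over the days (log2 units per 3 days). All 12 rose, where 5.06% of all genes tested rose and 4.30% fell. The slopes were 0.713 for Mrpl42, 0.674 for Mrpl23, 0.636 for Mrpl18, 0.623 for Mrps28, 0.575 for Mrpl52 and 0.544 for Mrpl12. They were 0.528 for Mrpl55, 0.525 for Mrps21, 0.512 for Mrpl49, 0.505 for Mrps36, 0.456 for Mrpl39 and 0.387 for Mrpl36. The adjusted p-values ran from 0.0195 (Mrpl42) to 0.0482 (Mrpl36). With 1 library left out at a time, each of these genes passed the test in 2 or 3 of 9 analyses, and each slope stayed above 0. The same slope in the lincRNA-p21 arm was not shown to differ from that in the Hnrnpk arm for any single one of them.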

How the results depend on the processing

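Outside the analyses that left out 1 library, the counts moved as follows. The number of members higher in the Hnrnpk arm than in the luciferase arm went from 0 to 14 without day 6 (11.7% of all genes tested). The rises from day 6 to day 9 went from 11 to 7 without the Hnrnpk arm, beside 17 falls (14.6% and 15.7% of all genes tested). Without the lincRNA-p21 arm the rises went to 5 and the falls from 15 to 1 (7.07% and 7.1%). The rises from day 6 to day 12 went from 16 to 10 with only the 6 libraries compared (16.4% of all genes tested). Without the Hnrnpk arm the rises went to 6 and the falls from 22 to 33 (19.7% and 23.2% of all genes tested). Without the lincRNA-p21 arm the rises went to 6 and the falls to 7 (11.5% and 13%). The Hnrnpk slope was called upwards in 5 members, not 12, without an intensity trend, where 2.66% of all genes tested were called upwards, not 5.06%. Each of these uses fewer libraries or another estimate of the spread, and the cause was not tested further.

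Over the 9 libraries left out in turn, the members called were 0 to 6 (higher in the Hnrnpk arm than in the luciferase arm), 5 to 14 and 6 to 20 (rises and falls from day 6 to day 9), 7 to 16 and 14 to 29 (from day 6 to day 12). They were 0 to 37 for the Hnrnpk slope, 0 to 2 for the lincRNA-p21 slope and 0 to 4 for the difference of the slopes. A left-out library leaves 1 residual degree of freedom in the slope fits. Pseudocounts of 1 and 50, no filter or a mean of at least 100, robust moderation, centring of each column at its median and a model without the other factor moved none of these counts by more than 1.5 times, and no called value reversed. Among the single genes named, 3976 values under the alternatives kept their side of the threshold, 136 no longer passed and 39 newly passed. The labels give no replicate numbers, and the day or the arm served as the block throughout. Without that term 10 members rose and 11 fell by day 9 (13.3% and 14.6% of all genes tested). In that fit 14 rose and 18 fell by day 12 (17.7% and 21.3%), and 0 differed between arms (at most 0.00797% each way). Depth is unknown, so counting error could not be given.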
